A study of Gallus gallus with 12 samples.

Results

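The genes described here were LZTFL1 and the genes of the BBSome and of its assembly factors, taken by symbol from a chicken expression array. Of the 10 genes sought, namely LZTFL1, BBS1, BBS2, BBS4, BBS5, BBS7, BBS9, BBS10, BBS12 and TTC8, 9 were present, and they were covered by 10 of the 37374 features of the array because BBS10 had a pair of features. BBS1 had no feature under that symbol and was not analysed here. LZTFL1 was chosen by its intensity values in mated and control hens on these same arrays, so its levels are described without a test. The other genes were added as its partners. Transcript levels came from the utero-vaginal junction (UVJ), the stretch of the hen oviduct between the shell gland and the vagina that holds the sperm storage tubules. All 12 hens were White Leghorn, a layer breed, and the tissue was collected 24 h after treatment. The 4 mated hens had each been paired with 1 male, the 4 SF-infused hens had been inseminated with seminal fluid (SF) from which the sperm had been spun out, and the 4 control hens had been neither mated nor inseminated. According to the methods the fluid came from the males used for mating and was pooled for each male, and no hen received an infusion without fluid, so what the fluid did and what the act of infusing did cannot be told apart. The age of the hens is not given in the sources used here.

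The BBSome is a coat of protein subunits that rides on intraflagellar transport trains and carries membrane proteins, among them receptors, through and out of cilia. As worked out in mammalian cells, the chaperonin-like proteins BBS10 and BBS12 help to build its scaffold, the small GTPase ARL6 brings the finished coat to membranes, and LZTFL1 binds the BBSome in the cytoplasm and restrains its entry into the cilium. Loss of these genes causes Bardet-Biedl syndrome in humans. The surface epithelium of the hen oviduct carries many ciliated cells, whose motile cilia move material along the duct.

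Each array carried the RNA of 1 hen. Median intensities of the arrays ran from 1077 to 1102. The random-sequence control spots lay at 3.81 to 3.95 on the log2 scale, and they were exceeded by 94.5% to 96.0% of features. All 10 features of the genes described here were above that control on all 12 arrays. Replicates of a group correlated across features at r = 0.940 to 0.989. Mated hens lay at array positions 5 to 8, SF-infused hens at 9 to 12 and control hens at 1 to 4 of 1 slide, so that position and treatment cannot be told apart. Levels are given as log2 intensities, as mean ± SD over 4 hens, and differences are log2 differences with the standard error (SE) of a limma fit over all 12 arrays. Values of different features were not compared with each other, since each rests on its own 3 probes.

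LZTFL1 (ENSGALT00000019273), the BBSome regulator, was lower in the mated hens than in any other hen. It lay at 8.37, 8.66, 9.91 and 9.03 in mated hens 1 to 4, at 11.28, 10.27, 10.67 and 10.66 in SF-infused hens, and at 11.13, 10.41, 9.92 and 10.38 in control hens. On the linear scale of the deposited values this was 330.4 to 960.4 in mated hens, 1232 to 2482 in SF-infused hens and 967.8 to 2235 in control hens. The highest mated value, that of hen 3, lay just under the lowest control value, that of control hen 3, with a gap of 0.0111 between them, while the other mated hens were well below all controls. Group levels were 8.99 ± 0.67 in mated hens, 10.72 ± 0.42 in SF-infused hens and 10.46 ± 0.50 in control hens (SD, n = 4).

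**Figure D1:**
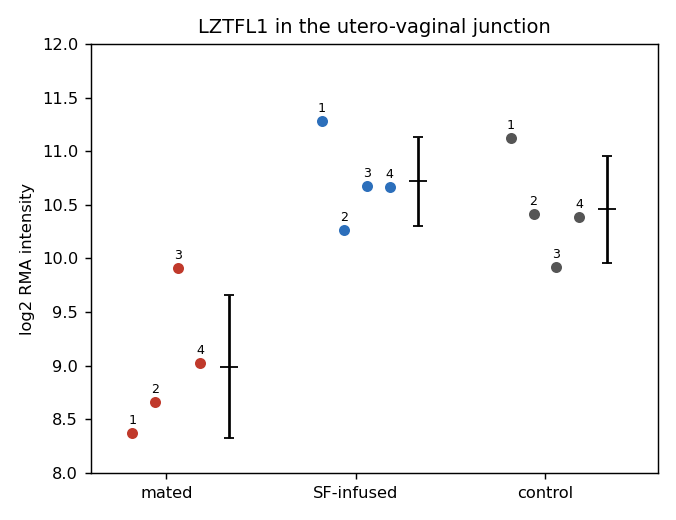
LZTFL1 level on each array. Each point is 1 hen, numbered by its replicate, with the log2 RMA intensity on the vertical axis, and the bars beside the points give the mean and SD of the 4 hens. Mated hens lay between 8.37 and 9.91, SF-infused hens between 10.27 and 11.28 and control hens between 9.92 and 11.13.

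The difference between mated and control hens was -1.47 (SE 0.35), or 2.77-fold lower in mated hens, and 72 of the 37374 features had a more negative difference. All mated arrays were below all control arrays for 0.492% of features. Because the gene was picked for this contrast, these values describe it and carry no test. Between mated and SF-infused hens the difference was -1.73 (SE 0.35), or 3.31-fold lower in mated hens, with a gap of 0.36 between the nearest hens. In this contrast 41 features had a more negative difference. All mated arrays were below all SF-infused arrays for 1.50% of features. SF-infused and control hens overlapped, and their difference was 0.26 (SE 0.35). These contrasts share arrays and are not independent of each other. In a piece of bulk tissue, fewer cells of a type and less RNA per cell cannot be told apart.

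The size of the mated-control difference rested in part on 1 hen per group. Its direction could not change when hens were left out, since all mated hens lay below all control hens. It was -1.77 without mated hen 3, -1.25 without control hen 1, and -1.95 without mated hen 3 and control hen 3, a setting chosen after seeing the data. With the arrays weighted by their quality it was -1.74, mated hen 3 having the smallest weight (0.404). These hens also stood apart in genes of ciliated cells. The mean of 23 measured ciliated cell markers, each gene taken relative to its mean over all arrays, was -0.62 in mated hen 3 and -0.61 in control hen 3, the lowest values of the 12 hens. It ranged from -0.62 to 0.16 in mated hens, from 0.02 to 0.37 in SF-infused hens and from -0.61 to 0.29 in control hens. LZTFL1 did not follow this order within the mated group, as mated hen 3 had the highest LZTFL1 level there and the lowest marker level, whereas control hen 3 was the lowest of its group in both. The marker lists of the eggshell gland and of squamous epithelium also varied between hens. The eggshell gland list reached 1.82 in control hen 3, the highest of all hens, and the squamous list was lowest in mated hen 3 at -1.59 and control hen 3 at -1.63. The part of tissue composition in the LZTFL1 values was not tested.

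None of the measured neighbours of LZTFL1 in the chicken genome had a mated-control difference below 0. The differences of XCR1, FYCO1 and SNRPD1 were smaller than their SE, however, and that of SLC6A20 was 0.15 (SE 0.14). Of all 37374 features 18769 had a positive difference. The RefSeq table of the GRCg7b assembly was used for the order of genes and for current gene symbols. Of the 6 nearest neighbours in it, 5 had a feature on the array. They were XCR1 and FYCO1 on the one side, and CCR9, SLC6A20 and SNRPD1 on the other. CCR9 lay within the span of LZTFL1. CCR9, a chemokine receptor of lymphocytes, lay at 6.12, 6.47, 6.46 and 6.59 in mated hens, at 5.99, 6.01, 6.50 and 6.42 in SF-infused hens, and at 5.70, 5.91, 5.84 and 6.29 in control hens. Mated hens 2, 3 and 4 were above all controls, and mated hen 1 was below control hen 4. The mated-control difference of CCR9 was 0.48 (SE 0.17), opposite in sign to that of LZTFL1, and passed the unadjusted threshold in the limma fit (adjusted p = 0.9999). Without control hen 1 it no longer passed. Of all features 1.35% passed upward in this comparison. The markers of T lymphocytes, which carry this receptor, averaged -0.245, 0.40, -0.45 and 1.33 in mated hens 1 to 4. In control hens they averaged -0.65 to 0.20. Of these markers, 12 of the 12 measured had a positive mated-control difference, as had 18769 of all 37374 features. The unadjusted threshold of limma was passed by 0 of these markers and by 2.22% of all features. Their part in the CCR9 values was not tested. The strand of the probes is not given in the sources used here, so signal from either strand where these genes overlap cannot be told apart.

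FYCO1, an adaptor that links vesicles to kinesin, differed between mated and control hens by 0.11 (SE 0.16), and SNRPD1, a core spliceosome protein, by 0.01 (SE 0.13). XCR1, a chemokine receptor, differed by 0.38 (SE 0.38) with widely scattered hens. The amino acid transporter SLC6A20 lay at 8.26 ± 0.26 in mated hens, 7.93 ± 0.08 in SF-infused hens and 8.11 ± 0.19 in control hens (SD, n = 4). It was 0.33 (SE 0.14) higher in mated than in SF-infused hens, past the unadjusted threshold (limma, adjusted p = 0.998). This call was lost without mated hen 1 or 3 or SF-infused hen 2, 3 or 4. Of all features 2.04% were higher at that threshold. CCR9 and SLC6A20 gave the only such calls among the 5 neighbours in any comparison between groups.

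**Figure D2:**
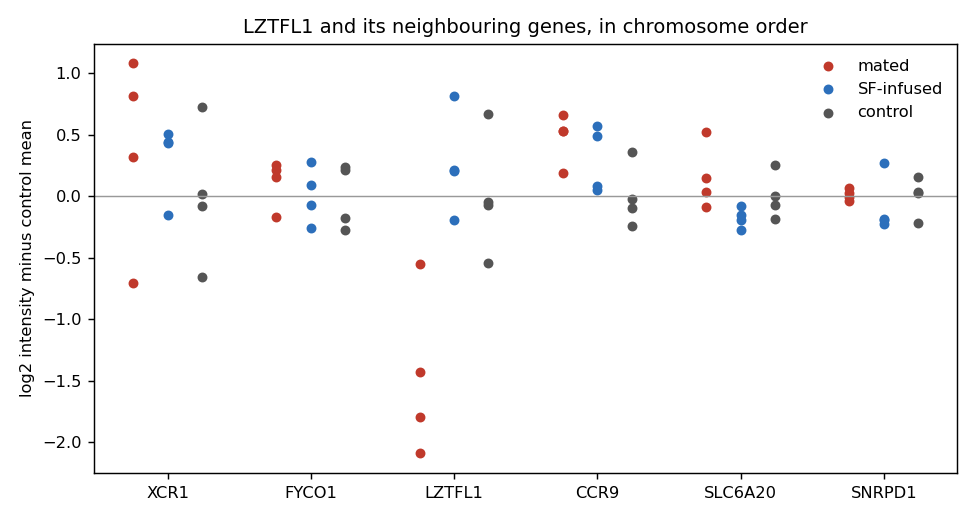
LZTFL1 and its neighbours in chromosome order. Each point is 1 hen, and the vertical axis gives the log2 intensity less the mean of the 4 control hens for that gene, with mated, SF-infused and control hens side by side. The mated hens lay below 0 for LZTFL1 and above 0 for CCR9.

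Genes whose levels most resembled LZTFL1 over the 12 hens were found among 9890 characterised genes, as a description without a test. They were the transcriptional coregulator TCF20 (r = 0.81, Spearman rho = 0.82), ATP5S, a coupling factor of ATP synthase (r = 0.81, rho = 0.78), COMMD5 (r = 0.79, rho = 0.61), LCORL (r = 0.75, rho = 0.81) and the sperm phospholipase PLCZ1 (r = 0.74, rho = 0.73), the last at or below the random control on 2 arrays. Their group levels were much closer together than those of LZTFL1: TCF20 lay at 12.83 ± 0.08 in mated hens, 13.03 ± 0.06 in SF-infused hens and 12.95 ± 0.09 in control hens (SD, n = 4). None of these 5 was a cilium gene of the lists described below. Those lists held only 87 measured genes, beside the 9890 searched, so their absence among 5 genes says little. Once the group means were subtracted, the leading genes were a different 5, namely the proteasome subunits PSMA4 (r = 0.90, rho = 0.80) and PSMA7 (r = 0.85, rho = 0.81), the histone methyltransferase gene WHSC1 (r = 0.86, rho = 0.59), NUP210L (r = 0.85, rho = 0.76) and PDAP1 (r = 0.84, rho = 0.86).

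None of the BBSome genes separated the mated hens from the controls. BBS2, BBS7 and BBS9 encode the propeller-bearing proteins that form the scaffold of the coat. BBS7 lay at 12.16, 12.16, 11.11 and 12.34 in mated hens, at 12.01, 11.90, 12.19 and 12.09 in SF-infused hens, and at 12.08, 11.61, 11.21 and 11.97 in control hens. Mated hen 3 and control hen 3 were the lowest of the 12 hens, and the SF-infused hens were close together. The levels were 11.94 ± 0.56 in mated hens, 12.05 ± 0.12 in SF-infused hens and 11.72 ± 0.40 in control hens (SD, n = 4), and the differences from control were 0.22 (SE 0.27) after mating and 0.33 (SE 0.27) after SF-infusion. Without mated hen 3 the mated-control difference was 0.50 and passed the unadjusted threshold in limma, as it did without hens 3 of both groups, at 0.33.

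BBS9 lay at 10.16, 10.43, 9.40 and 10.29 in mated hens, at 10.21, 10.36, 10.53 and 10.11 in SF-infused hens, and at 10.85, 9.89, 9.50 and 10.22 in control hens. Hens 3 of the mated and control groups were again the lowest, and control hen 1 was the highest. The mated-control difference was -0.05 (SE 0.29) and the difference between SF-infused and control hens 0.19 (SE 0.29). BBS2 ran differently over the hens. It lay at 12.32, 12.04, 12.56 and 11.73 in mated hens, at 12.31, 12.02, 11.70 and 12.38 in SF-infused hens, and at 12.05, 12.63, 12.68 and 11.86 in control hens. Here hens 3 of the mated and control groups were the highest of their groups, and all groups overlapped. The differences of BBS2 from control were -0.14 (SE 0.24) after mating and -0.20 (SE 0.24) after SF-infusion.

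BBS4 and TTC8, also known as BBS8, are built of tetratricopeptide repeats that embrace the scaffold, and BBS5 carries pleckstrin homology-like domains that bind membrane lipids. BBS4 lay at 13.46, 13.35, 13.17 and 13.35 in mated hens, at 13.28, 13.19, 13.46 and 13.56 in SF-infused hens, and at 13.50, 13.23, 13.10 and 13.20 in control hens. The 3 groups covered nearly the same range, with differences from control of 0.07 (SE 0.12) after mating and 0.11 (SE 0.12) after SF-infusion. TTC8 lay at 11.88, 11.74, 11.71 and 11.71 in mated hens, at 11.80, 12.02, 11.77 and 11.65 in SF-infused hens, and at 11.53, 11.62, 11.87 and 11.53 in control hens. Control hens 1, 2 and 4 were below all other hens, and control hen 3 was among the highest. TTC8 differed from control by 0.12 (SE 0.11) after mating and by 0.17 (SE 0.11) after SF-infusion, the smallest p of the 9 features against control (limma, adjusted p = 0.739). Without control hen 3 the SF-infusion difference was 0.25 and passed the unadjusted threshold. BBS5 lay at 11.22, 11.10, 10.82 and 11.10 in mated hens, at 11.16, 10.71, 11.14 and 11.08 in SF-infused hens, and at 11.52, 11.03, 10.71 and 11.09 in control hens. Its differences from control were -0.03 (SE 0.17) after mating and -0.06 (SE 0.17) after SF-infusion, and the hens of each group overlapped those of the others.

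BBS10 and BBS12 are the chaperonin-like assembly factors. The 1st BBS10 feature (ENSGALT00000016645) lay at 12.18, 12.02, 12.28 and 12.08 in mated hens, at 12.52, 12.07, 12.51 and 12.68 in SF-infused hens, and at 12.47, 12.44, 12.10 and 11.98 in control hens. Mated hens lay below 3 of the 4 SF-infused hens, SF-infused hen 2 falling among them, and controls were spread over the ranges of both treated groups. The mated level was 12.14 ± 0.11 and the SF-infused level 12.45 ± 0.26 (SD, n = 4), a difference of -0.31 (SE 0.15), which did not pass the unadjusted threshold (limma, adjusted p = 0.998). Without SF-infused hen 2 it was -0.43 and passed, as did the SF-infusion difference from control at 0.32. With array weights the mated-SF-infused difference was -0.35 and passed as well.

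The 2nd BBS10 feature (ENSGALT00000038474) lay at 10.91, 10.72, 10.66 and 10.60 in mated hens, at 11.09, 10.79, 10.84 and 11.20 in SF-infused hens, and at 11.11, 11.13, 10.45 and 10.51 in control hens. As with the first feature, control hens 1 and 2 were higher than control hens 3 and 4, and the mated mean was under the SF-infused mean, by -0.26 (SE 0.18). The differences from control of the features were -0.11 and -0.08 after mating and 0.19 and 0.18 after SF-infusion, so the signs were the same for both. BBS12 lay at 10.74, 10.58, 10.26 and 10.55 in mated hens, at 10.62, 10.31, 10.57 and 10.52 in SF-infused hens, and at 10.70, 10.37, 10.40 and 10.40 in control hens. The groups overlapped, with differences from control of 0.06 (SE 0.13) after mating and 0.04 (SE 0.13) after SF-infusion.

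**Figure D3:**
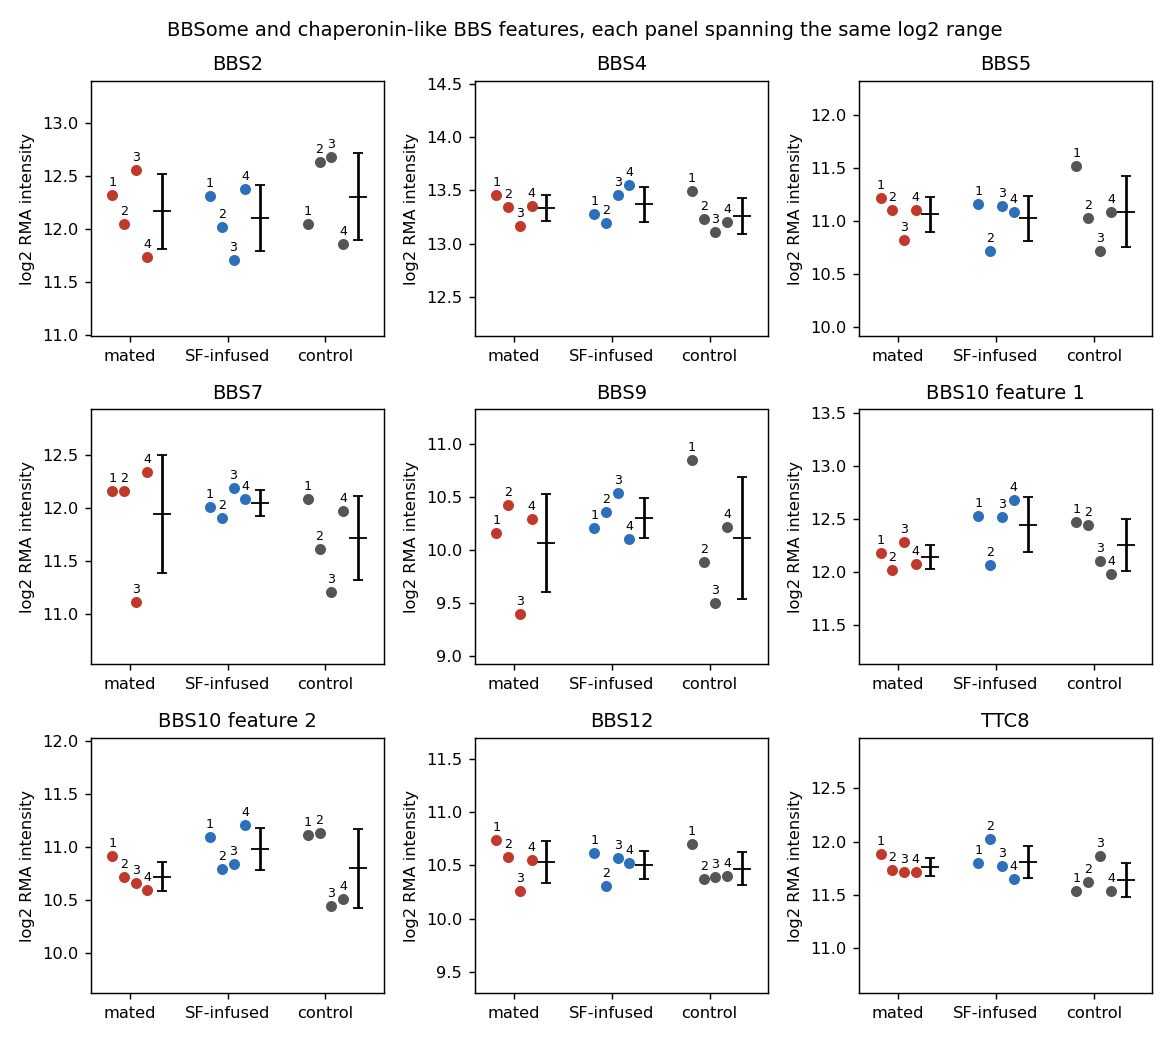
Levels of the 9 BBSome and chaperonin-like features on each array. Points are hens, numbered by replicate, on a log2 RMA intensity axis that spans the same width in every panel, and bars give the mean and SD of 4 hens. The groups overlap in every panel, and mated hen 3 and control hen 3 are the lowest hens for BBS7 and BBS9.

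The comparison of mating against control asked what differs in the UVJ after natural mating. With limma, 2.22% of all features passed the unadjusted threshold of p 0.05 in that comparison, which the study treats as suggestive, and 0 passed after Benjamini-Hochberg adjustment. The study also set a permutation threshold, past which it reports some genes, and which was not repeated here. Of the 9 BBSome and chaperonin-like features, 0 passed the unadjusted threshold and 0 had separate groups, against 1.34% of all features with separate groups. By direction, 1.35% of all features passed upward and 0.867% downward. Of these features, 4 had a positive and 5 a negative difference, with a median of -0.03, against 0.000708 over all features. With single hens left out this median lay between -0.077 (without mated hen 1) and 0.13 (without mated hen 3). Their differences lay between -0.14 and 0.22, and the 95% confidence intervals of the single features together covered -0.68 to 0.81.

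SF-infusion against control asked about the fluid without sperm. The unadjusted threshold was passed by 6.47% of features and the adjusted one by 0 (limma). Again 0 of the 9 BBSome and chaperonin-like features passed the unadjusted threshold and 0 had separate groups, against 3.84% of all features (2.47% higher and 1.38% lower in SF-infused hens). The difference was positive for 7 and negative for 2 of them, and the median was 0.17, against 0.0089 over all features. The median was 0.063 without control hen 3 and 0.19 without control hen 1. The range was -0.20 for BBS2 to 0.33 for BBS7, and the intervals covered -0.73 to 0.91.

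Between mated and SF-infused hens, who differed in the presence of sperm and in the way the fluid arrived, 4.70% of features passed the unadjusted threshold and 0 the adjusted one (limma). Of the passing features 43.4% were higher in mated hens, a share that was 58.7% after quantile normalisation of the features. None of the 9 BBSome and chaperonin-like features passed, and their differences ranged from -0.31 for the 1st BBS10 feature to 0.06 for BBS2, with a median of -0.05, against -0.0068 over all features. The median was -0.098 without SF-infused hen 2 and -0.012 without mated hen 3. All mated arrays were separate from all SF-infused arrays for 3.04% of features (1.54% higher and 1.50% lower in mated hens) and for 0 of these 9. The intervals covered -0.87 to 0.59.

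**Figure D4:**
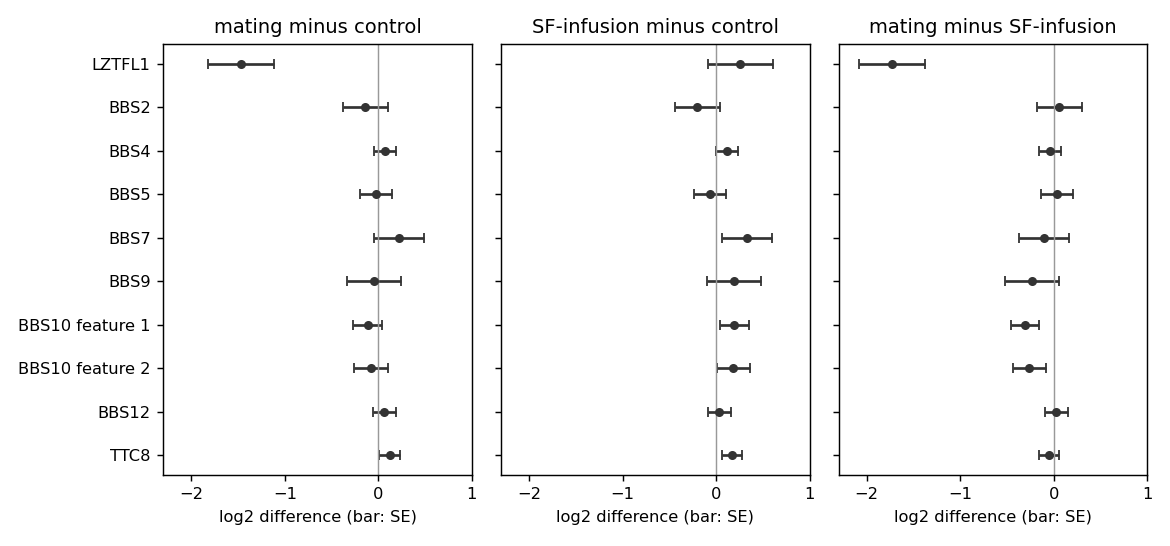
Differences between groups for LZTFL1 and the 9 other features. The horizontal axis gives the log2 difference, with mating minus control on the left, SF-infusion minus control in the middle and mating minus SF-infusion on the right, and bars give the SE. LZTFL1 lies at -1.47, 0.26 and -1.73, and the other features between -0.31 and 0.33. LZTFL1 was chosen on these arrays, so its place beside the others is only a description.

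The BBSome genes varied from hen to hen, and partly together. With the group means subtracted, BBS7 and BBS9 correlated over the 12 hens at r = 0.88, BBS5 and BBS12 at 0.86 and BBS4 and BBS5 at 0.84, and the pair of BBS10 features at 0.78. BBS2 ran against its scaffold partners, at -0.74 with BBS7 and -0.77 with BBS9. These coefficients are descriptions over arrays that share tissue composition and signal quality, and no test was attached to them. Mated hen 3 was the lowest of the 12 hens for BBS7, BBS9 and BBS12, and the lowest of its group for 6 of the 9 features. SF-infused hen 2 was likewise the lowest of its group for 6, and control hen 3 for 5. The mean of the 6 measured BBSome subunits, each relative to its mean over all arrays, was -0.27 in mated hen 3 and -0.22 in control hen 3, where the ciliated cell markers were lowest as well. It lay between -0.08 and 0.19 in all other hens. The part of ciliated cell content in these values was not tested.

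The levels of LZTFL1 and of its partners over the 12 arrays are set side by side as a description, with no test, since LZTFL1 was picked on these arrays. Of the 9 features, the 1st BBS10 feature had the highest correlation with LZTFL1, at r = 0.65 and Spearman rho = 0.67. The 2nd BBS10 feature had r = 0.45 and rho = 0.52, and the other 7 features lay between r = -0.31 for TTC8 and 0.16 for BBS9. Several of these values hung on mated hens 1 and 2, the hens farthest from the LZTFL1 median. Without them r was 0.66 for the 1st BBS10 feature, 0.70 for the 2nd, 0.50 for BBS5, 0.47 for BBS12, 0.43 for BBS9 and 0.37 for BBS4, and between -0.19 and 0.19 for TTC8, BBS2 and BBS7. With group means subtracted it was 0.55 for the 1st BBS10 feature and -0.59 for TTC8, and the other features lay between -0.21 for BBS7 and 0.31 for BBS5.

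The wider machinery of the cilium was examined with 9 lists that held 115 genes, of which 87 were measured. For mating, 0 of the 87 passed the unadjusted threshold of limma in either direction, where 2.22% of all features did, and the median difference was 0.03. The list medians lay between -0.04 and 0.09. They moved with single hens, reaching -0.11 for the transition zone without control hen 3. For complex B of intraflagellar transport the median reached 0.19 without mated hen 3. For the list of cilium-forming and RFX-family factors it reached 0.19 without control hen 1. After SF-infusion 4 genes were higher and 2 lower at the unadjusted threshold, 0 after adjustment, where 4.15% and 2.32% of all features were. Such calls were thus about as common in these lists as over the whole array. The median was 0.10, against 0.0089 over all features. Between mated and SF-infused hens 0 were higher and 1 was lower, where 2.04% and 2.66% of all features were.

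Among the genes closest to the BBSome, ARL6, the GTPase that recruits it, lay at 11.23 ± 0.21 in mated hens, 11.22 ± 0.39 in SF-infused hens and 11.22 ± 0.19 in control hens (SD, n = 4). It belonged to a list of recruiters and partners of which 13 of 19 genes were measured and 0 passed in either treatment against control. Of all features 2.22% passed for mating and 6.47% for SF-infusion. Of the assembly chaperonins, 10 of 11 were measured. MKKS, the chaperonin-like partner of BBS10 and BBS12, lay at 10.28 ± 0.20 in mated hens, 10.05 ± 0.10 in SF-infused hens and 10.36 ± 0.12 in control hens (SD, n = 4). It was the only gene of its list past the unadjusted threshold, at -0.31 (SE 0.12) after SF-infusion with separate groups (limma, adjusted p = 0.735). The call was lost without control hen 2 or 3 or SF-infused hen 2 or 3. After SF-infusion 2.32% of all features passed downward, and 1.38% had separate, lower groups.

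Genes of intraflagellar transport, the trains that the BBSome rides on, were mostly a little above control after SF-infusion. Over all 37374 features 19326 had a positive difference, 4.15% passed upward and 2.47% had separate, higher groups. Of the train complex that moves outward, complex B, 11 of 12 measured genes had a positive difference, but 0 passed the unadjusted threshold, and the median was 0.18, which was 0.075 without control hen 3 and 0.28 without control hen 1. The list of the return complex, complex A, also held an adaptor that binds the complex. Of its 6 measured genes 5 had a positive difference, the adaptor being the exception at -0.22 (SE 0.13). TTC21B, a subunit of complex A, passed. TTC21B lay at 12.71 ± 0.18 in mated hens, 12.90 ± 0.08 in SF-infused hens and 12.53 ± 0.21 in control hens (SD, n = 4). All SF-infused hens were above all controls, the difference being 0.37 (SE 0.12; limma, adjusted p = 0.735). Of the motors, 7 of 7 had a positive difference. Their median was 0.15, which was 0.080 without SF-infused hen 4 and 0.33 without control hen 1. The genes of a list were measured in the same hens, so their signs are not separate observations. WDR34, an intermediate chain of the dynein that drives the return, passed at 0.33 (SE 0.12; limma, adjusted p = 0.735). For WDR34 the groups overlapped, the lowest SF-infused hen lying at 11.58 and the highest control hen at 11.65. The calls of TTC21B and WDR34 held whichever hen was left out. WDR35, another complex A subunit, was lower in mated than in SF-infused hens, at -0.42 (SE 0.15), past the unadjusted threshold (limma, adjusted p = 0.927), a call lost without mated hen 2. On the same arrays the mean of the ciliated cell markers was 0.02 to 0.37 in SF-infused hens. It was also above 0 in mated hens 1, 2 and 4, and in control hen 1, at 0.29. After SF-infusion 5 of 23 of those markers passed the unadjusted threshold upward, where 4.15% of all features did. Among them were the axoneme genes HYDIN at 0.49 (SE 0.18) and LRRC23 at 0.62 (SE 0.22; limma, adjusted p = 0.735 each). LRRC23 was lost without control hen 3, and HYDIN without control hen 3 or SF-infused hen 3 or 4. All 23 were above the random control on every array. The part of these cells in the transport genes was not tested.

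In the transition zone, the gate at the base of the cilium, 1 of 15 measured genes passed after SF-infusion, against 6.47% of all features. This was MKS1 at 0.29 (SE 0.12; limma, adjusted p = 0.735), with overlapping groups. Its call was lost in 10 of the 12 fits that left out a hen. Among Hedgehog genes and other receptors that travel through cilia, 13 were measured. The ligand SHH lay at 11.28 ± 0.89 in mated hens, 11.83 ± 0.59 in SF-infused hens and 10.73 ± 0.48 in control hens (SD, n = 4). Its difference after SF-infusion was 1.10 (SE 0.44; limma, adjusted p = 0.735), with overlapping groups. It passed the unadjusted threshold, a call that was lost in 5 of those fits. SUFU, the inhibitor of the pathway's GLI factors, was lower in SF-infused than in control hens, at -0.50 (SE 0.19), with separate groups (limma, adjusted p = 0.735), also lost without control hen 2 or 3 or SF-infused hen 2 or 3. Over all features 4.15% passed upward and 2.32% downward, and 1.38% had separate, lower groups. Squamous epithelium markers lay at 0.12 to 1.24 in SF-infused hens and -1.63 to 0.80 in control hens, and eggshell gland markers at -1.42 to 0.35 in SF-infused hens and -0.54 to 1.82 in control hens. Their part in these differences was not tested. Of a list of cilium-forming and RFX-family factors, 6 of 12 were measured and 0 passed. The share over all features was 2.22% for mating and 6.47% for SF-infusion. The list took in RFX-family members whose part in cilia was not examined here. Among them were RFX5, at 0.24 (SE 0.16) after mating, and RFX4, which lay between 4.09 and 4.97, close to the random control. FOXJ1, the main regulator of motile cilia, lay at 14.00 ± 0.31 in mated hens, 14.05 ± 0.09 in SF-infused hens and 13.96 ± 0.22 in control hens (SD, n = 4).

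**Figure D5:**
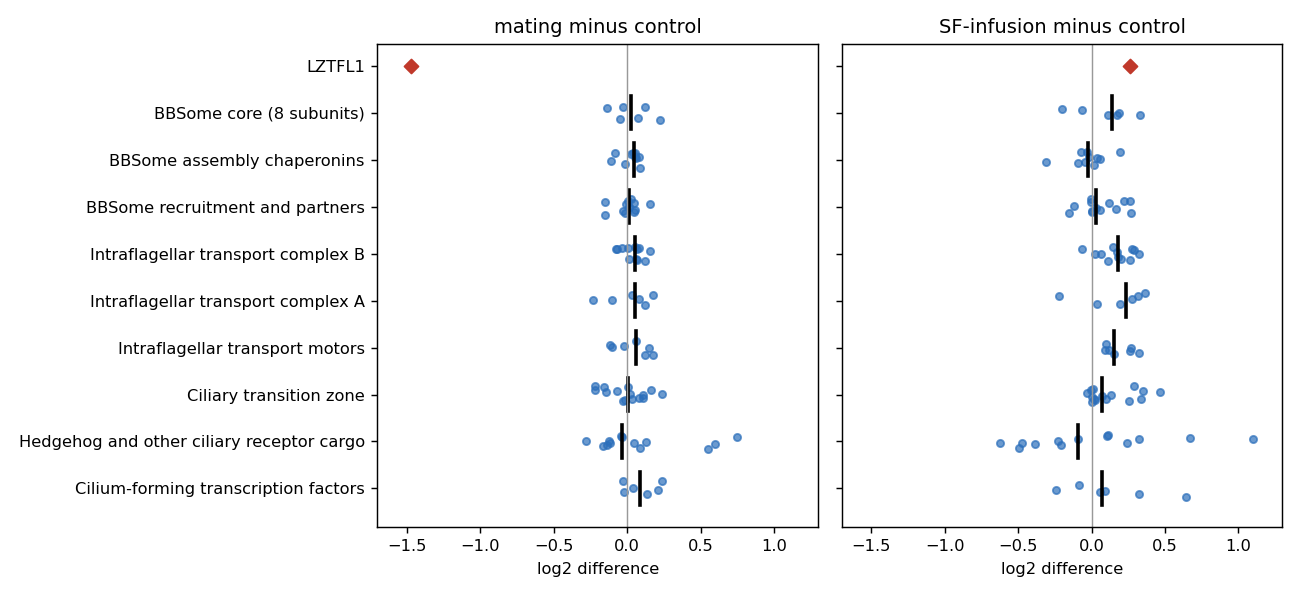
Differences of LZTFL1 and of 9 lists of cilium genes. The horizontal axis gives the log2 difference of each gene, with mating minus control on the left and SF-infusion minus control on the right. Points are genes, the diamond is LZTFL1 and the black bars are list medians. After mating the list medians lie between -0.04 and 0.09 and the single list genes between -0.28 and 0.75, while LZTFL1 lies at -1.47. LZTFL1 was chosen by its values in mated and control hens, so its place beside the lists is only a description.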

How the data were processed

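Cy3-labelled cDNA from the UVJ of 12 hens had been run on a custom-made NimbleGen array, 1 array per hen. The authors applied robust multichip averaging (RMA), with background adjustment, quantile normalisation between arrays and summarisation of probes, and deposited linear intensity values. They also deposited the number of probes per feature, another column used only for description. RMA and limma are named in the submitters' processing notes. The build behind the array is not given in the sources used here. A series-wide table repeated these values.

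Intensities were converted here to log2 with no pseudocount, from the lowest deposited intensity of 4.22 upward. All 37374 features and 12 arrays entered 1 limma 3.58.1 fit (R 4.3.3) with a mean per group and empirical Bayes moderation, as in the study's methods. P-values were two-sided and Benjamini-Hochberg adjusted over all features. Those of BBSome genes set a group difference against the moderated spread between arrays within groups, with 1 array per hen. The 4 arrays per group limit the precision. Correlations between genes over arrays were given as descriptions. Simulated data were used to test the fit.

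The members and lists were chosen with earlier results of these data known. In each pathway list up to 3 genes with the smallest p were open to naming, and so were 5 genes most like LZTFL1 by Pearson's r with and without group means, up to 3 neighbours on each side, and up to 2 genes of a marker list. In the lists the brightest feature stood for a gene. The alternatives tried were median centring, quantile normalisation, the series table, no dim features, the groups compared alone, a replicate block, a trended robust prior, array weights and leaving out each hen. Leaving out mated hen 3 and control hen 3 together was chosen after seeing the data.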

Additional observations from a re-analysis of the deposited data

Results flagged for a closer look

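Within groups of 4 hens, 6 of the 45 combinations of feature and group examined had 1 hen set apart from the rest, its gap to the nearest hen being a larger share of the range than Dixon's 95% critical value. Chance flags about 1 in 20. Among BBSome genes, BBS7 in mated hen 3 (11.11) and BBS5 in SF-infused hen 2 (10.71) lay below their groups, and TTC8 in mated hen 1 (11.88) and BBS12 in control hen 1 (10.70) lay above. Among the neighbours of LZTFL1, XCR1 in SF-infused hen 1 (5.52) lay below its group and SNRPD1 in SF-infused hen 4 (8.90) above. LZTFL1 had no such hen in any group.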

How the results depend on the processing

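LZTFL1 kept the sign of its 3 differences under every alternative. For the mated hens against either other group, leaving out hens could not change it, since all mated hens lay below all others. The kept sign therefore does not measure how stable those differences were. Leaving out single hens gave -1.77 to -1.25 for mating minus control, 0.07 to 0.48 for SF-infusion minus control and -2.03 to -1.52 for mating minus SF-infusion. For the other 9 features, 30 of 567 values under alternatives changed sign, the farthest from 0 at 0.198, and 7 crossed to unadjusted p under 0.05. The cause was not tested. Many of the 567 could not change sign, so this share does not measure how stable the signs were. The series table, no dim features, the groups compared alone, the replicate block and the trended prior left each difference as it was. So did leaving out a hen of the group not compared. With array weights the mated-control difference was 0.065 for BBS5 and 0.17 for BBS9, and the mated-SF-infused difference 0.0083 for BBS4 and 0.024 for BBS7. Without mated hen 3 and control hen 3 BBS9 had -0.017 for SF-infusion minus control, and BBS2, BBS4 and BBS7 had -0.069, 0.016 and 0.17 for mating minus SF-infusion. With single hens left out, mating minus control spanned -0.29 to 0.0034 for BBS2, -0.15 to 0.12 for BBS5, -0.25 to 0.20 for BBS9, -0.20 to 0.030 for the 2nd BBS10 feature and -0.0053 to 0.15 for BBS12. SF-infusion minus control spanned -0.19 to 0.079 for BBS5, -0.017 to 0.43 for BBS9 and -0.0012 to 0.11 for BBS12. Mating minus SF-infusion spanned -0.071 to 0.20 for BBS2, -0.10 to 0.022 for BBS4, -0.065 to 0.12 for BBS5, -0.24 to 0.17 for BBS7, -0.042 to 0.12 for BBS12 and -0.10 to 0.022 for TTC8. Features past unadjusted p 0.05 numbered 828 for mating, 2417 for SF-infusion and 1756 between treatments. They numbered 391, 1597 and 728 among the 28030 brighter features, where fewer were tested, and 1862, 4064 and 2817 with array weights. With single hens left out they numbered 589 to 2108 for mating, the highest without mated hen 3, 1502 to 3505 for SF-infusion, the lowest without SF-infused hen 3, and 1256 to 2537 between treatments. Without mated hen 3 and control hen 3 there were 1313 for mating. After adjustment 0 to 1 passed for mating and between treatments with single hens left out, 1 in each without both hens 3, and 1 between treatments in a fit of those groups alone, none of them a gene described here. The sources used here do not say whether the replicate numbers pair the hens. Deviations of same-numbered hens correlated at -0.36 to 0.62, and 3 of 12 arrays correlated best with their own number. These mixed values cannot settle pairing, since other differences between hens move them too. With the replicate block the counts were 940, 2649 and 1827.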
